A study of Mus musculus with 6 samples.

Results

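The genes described here encode the proteins of the cytosolic ribosome. They were taken as every gene whose symbol begins with Rpl or Rps and a digit, together with Rplp0, Rplp1, Rplp2 and Rpsa, and without the 8 Rps6k kinases. The choice rested on the symbol alone, and 87 of the 14701 genes in the tables met it, 54 with large subunit symbols and 33 with small subunit symbols. The symbol also took in Rps19bp1, which encodes a protein that binds Rps19 and is not itself a ribosomal protein, and the copies Rpl34-ps1, Rpl37rt, Rpl32l and Rpl31-ps12. The study compared untreated IEC 4.1 cells, a mouse line labelled as intestinal epithelium, with IEC 4.1 cells exposed for 6 h to interferon-gamma, dosed at 10 ng/ml. RNA was sequenced from 3 control libraries (replicates 2, 3 and 4) and 3 treated libraries (replicates 1, 2 and 4). The labels name 1 line, no genetic change and no agent beyond interferon-gamma, and they do not say whether the replicates were separate cultures, so the p-values measure only the spread between these libraries, which may be technical.

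A cytosolic ribosome is built from a large and a small subunit, each made of ribosomal RNA and a fixed set of proteins that are needed in about equal numbers. Messengers of these proteins begin at a C and run on in a stretch of C and T, the terminal oligopyrimidine (TOP) motif, through which the kinase mTOR, acting with the RNA-binding protein Larp1, sets how strongly they are translated. Interferon-gamma is a cytokine of T cells and natural killer cells that acts on the intestinal epithelium, and some ribosomal proteins also have tasks away from the ribosome, among them Rpl13a in the GAIT complex that silences inflammatory messengers in myeloid cells.

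The start regions are shown because the TOP motif is the feature that ribosomal protein messengers are best known to share. RefSeq promoter windows on build GRCm38.p6, from 250 bases before to 50 bases after an annotated start, were matched by gene identifier to 66 of the 87 genes. Each line gives the 15 bases before the start and the first 15 bases of the transcript, 5′ to 3′ on the strand of the gene, with the longest run of C and T in capitals. Where a gene has several annotated starts, the one with the longest run is shown. The first 5 genes had the largest rises among those with a window, the next 3 had changes near 0, and the last pair are paralogs. Rpl21, which ranked second by its rise, had no window.
Rpl35a: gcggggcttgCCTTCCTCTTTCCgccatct
Rpl22l1: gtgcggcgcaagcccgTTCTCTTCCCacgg
Rps15a: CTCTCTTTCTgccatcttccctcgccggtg
Rpl19: tgggCTCTCCCCTTCgcagataatgggcgg
Rpl31: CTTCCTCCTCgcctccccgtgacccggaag
Rpl18: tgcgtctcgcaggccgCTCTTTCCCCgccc
Rps12: taccgtcatgcggccaccgccggCCTTTTC
Rps2: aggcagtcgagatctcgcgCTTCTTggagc
Rps27: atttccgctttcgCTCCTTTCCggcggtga
Rps27l: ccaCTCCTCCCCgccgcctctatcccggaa

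On the plus strand these windows were chr16:33056467-33056496 for Rpl35a, chr3:28805493-28805522 for Rpl22l1, chr11:98026909-98026938 for Rpl19, chr1:39367836-39367865 for Rpl31, chr7:45718056-45718085 for Rpl18, chr17:24720048-24720077 for Rps2 and chr9:66946071-66946100 for Rps27l. On the minus strand they were chr7:118116133-118116162 for Rps15a, chr10:23787195-23787224 for Rps12 and chr3:90213634-90213663 for Rps27. The right-hand 15 bases of each line are the first of an annotated transcript and so lie in its first exon. A run of at least 8 bases of C and T on the gene's strand lay within these 30 bases in 28 of the 66 ribosomal protein genes (42.4%), against 14.9% of all genes of the tables that had a window and 13.9% of all genes in the RefSeq table. It was present in 9 of the 15 risen genes with a window (60.0%) and in 19 of the 49 tested genes that did not pass the test (38.8%), but the risen genes had more annotated starts per gene (21 windows for 15 genes against 54 for 49). The run was sought anywhere in the 30 bases, so it need not begin at the first base of the transcript as a TOP motif does. Those of Rps15a, Rpl31, Rpl19 and Rps27l lay wholly before the annotated start. Rpl18, whose change was near 0, carried a run of 10 bases after its annotated start. The runs of Rpl22l1, Rps15a and Rpl31 had the same length as that of Rpl18.

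Further motifs were searched on both strands of the 300-base windows. The gamma-activated site, TTCNNNGAA, was found in 4 of the 66 genes (6.06%), namely Rpl35, Rpl36al, Rpl4 and Rplp0, against 8.37% of the genes of the tables. The core of the interferon-stimulated response element, GAAANNGAAA, was found in 7 (10.6%), namely Rpl27a, Rpl38, Rpl4, Rpl5, Rps19, Rps23 and Rps7, against 3.85%, and in 0 of the 15 risen genes. On the other strand this core is itself a run of T, C and N letters and can lie inside a run of C and T. The ETS-factor motif CCGGAAG was found in 26 (39.4%), against 18.1%. A match describes letters in a window and is not a bound site.

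The treatment was checked through a gene that interferon-gamma is known to induce. Irf1, a transcription factor of the interferon response, stood at 95.4 ± 5.42 CPM (counts scaled to library size by the TMM method) in controls and 1138 ± 14.4 in treated libraries (SD, n = 3 each), a log2 change of 3.58 ± 0.05 (SE). Library totals lay between 17490689 and 18678543 estimated counts. The label of an epithelium was checked against its markers: 7 of 12 epithelial genes (Epcam, Cdh1, keratins, claudins and others) had values, none of these passed the filter on low counts, none was at 0 in all 6 libraries, and the highest level in any library was 0.547 CPM (marker levels are scaled to total counts). Of 10 mesenchymal markers 9 had values, summing to 5767 to 5998 CPM in controls and 5385 to 5757 CPM in treated libraries. These marker levels did not bear out the epithelial label. Of the 8 tested mesenchymal markers 5 fell and 2 rose, beside 18.1% and 19.9% of all tested genes. Of 8 leukocyte markers 5 had values, summing to 23.3 to 26.8 CPM and 20.1 to 21.4 CPM, and 2 of 4 endothelial markers had values of at most 0.515 CPM. The part of these differences in the changes of the ribosomal protein genes was not tested. In bulk RNA, more of a transcript per cell and more cells rich in it cannot be told apart.

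After 6 h of interferon-gamma the median ribosomal protein gene stood slightly higher. Of the 87 genes, 85 passed the filter on low counts, and 21 of these rose and 0 fell by edgeR's quasi-likelihood test with Benjamini-Hochberg adjustment over all 11423 tested genes at a threshold of 0.05. Over all tested genes 19.9% rose and 18.1% fell, 38.1% in either direction, so the share of ribosomal protein genes that rose (24.7%) was near that background, and the share that fell was 0. At an unadjusted p under 0.05, 32 of the 85 were higher and 1 lower, beside 2690 higher and 2502 lower of all 11423 tested genes. DESeq2 called 19 higher and 0 lower (16.9% and 16.0% of all genes), and limma-voom 20 and 0 (19.9% and 18.1%). The median log2 change was 0.12 against 0.01 over all tested genes, with quartiles of 0.08 and 0.15. Of the 85 genes, 82 had a change above 0 and 3 a change below 0, namely Rpl18 (-0.000243), Rpl7l1 (-0.08) and Rps19bp1 (-0.15). The highest was Rpl35a, at 1.19-fold.

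**Figure D1:**
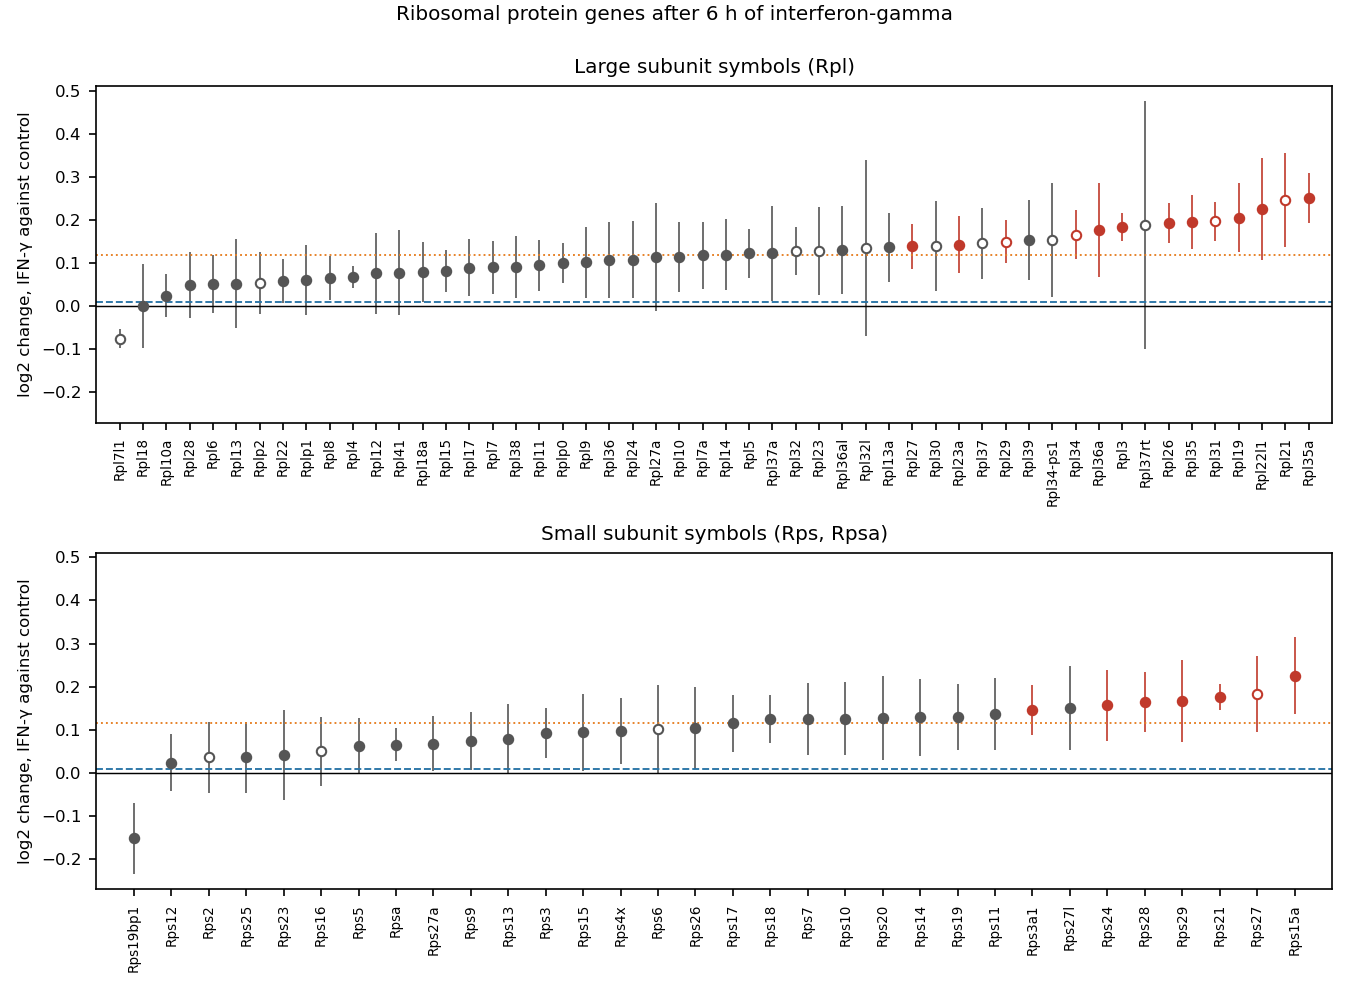
Log2 change (interferon-gamma against control, vertical axis) of 84 of the 85 tested ribosomal protein genes, ordered by its change, for large subunit symbols (top) and small subunit symbols (bottom); bars are ±1 SE from the replicate spread, red marks genes past the edgeR threshold, open circles mark genes with non-whole counts, the dotted line is the median of all tested genes of that subunit and the dashed line that of all 11423 tested genes. The medians are 0.12 and 0.11, and every red gene lies above 0.

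The amount was smaller than the spread between libraries in the share of counts, and somewhat larger than it on the log2 scale. The SD of the changes over the 85 genes was 0.06, and the median SE of a single gene's change was 0.08. The genes together took 6.15%, 5.66% and 5.67% of the counts in control replicates 2, 3 and 4, and 5.72%, 6.14% and 6.02% in treated replicates 1, 2 and 4. Control replicate 2 lay just above every treated library and treated replicate 1 among the controls, so the groups overlapped, with means of 5.83% ± 0.278 and 5.96% ± 0.219 (SD, n = 3 each). The same 2 libraries stood apart from their groups gene by gene. Control replicate 2 was the highest control in 73 of the 85 genes, and treated replicate 1 was the lowest treated library in 71. The median gene deviated from its mean over the 6 libraries by 0.04, -0.10 and -0.10 on the log2 scale in controls and by -0.02, 0.10 and 0.09 in treated libraries. The group means of this deviation were -0.05 ± 0.08 and 0.06 ± 0.07 (SD, n = 3 each), and the groups overlapped. The corresponding median over all tested genes lay between -0.00257 and 0.0121 in the 6 libraries.

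**Figure D2:**
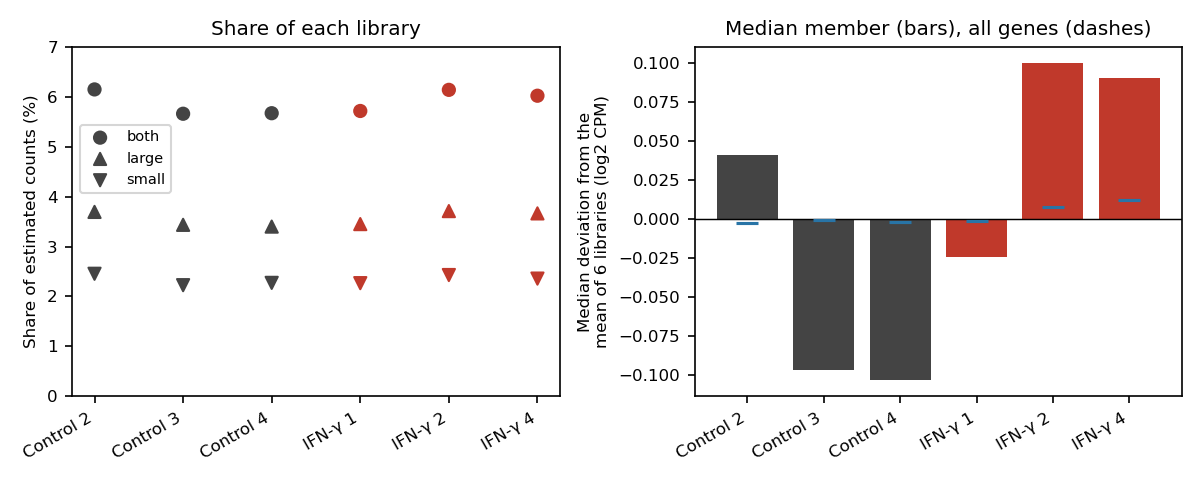
Left, percent of each library's estimated counts on ribosomal protein genes, for both subunits and for each. Right, median deviation of the tested ribosomal protein genes from their mean over 6 libraries (bars, log2 CPM), with the same for all tested genes (dashes). Control replicate 2 (6.15%) exceeds treated replicate 1 (5.72%), and only control replicate 2 among the controls lies above 0.

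Of 52 tested large subunit genes 13 rose, with a median log2 change of 0.12, and of 33 small subunit genes 8 rose, with a median of 0.11. Over all tested genes 19.9% rose. The difference between the subunits was not tested. Large subunit genes held 3.51% ± 0.161 of the control counts and 3.61% ± 0.139 of the treated counts. Small subunit genes held 2.32% ± 0.121 and 2.35% ± 0.0816 (SD, n = 3 each), and in both subunits the groups overlapped. The ratio of large to small subunit counts was 1.51 ± 0.0249 in controls and 1.53 ± 0.0172 in treated libraries, also overlapping. The libraries of the groups did not overlap in 15 of the 85 genes, 14 of them higher after interferon-gamma (10 large, 4 small), against 24.7% of all tested genes that were higher without overlap and 48.0% that did not overlap in either direction.

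How far the count of risen genes can be read depends on scaling and on single libraries. With scaling to total counts 4 rose (4.71%, against 14.4% of all genes in that fit) and 2 fell (27.3% of all genes). With upper-quartile scaling 8 rose (9.41% against 15.5%) and 2 fell (24.7% of all genes). On log2(TPM + 1) with limma 1 rose (1.18% against 11.6%) and 2 fell (28.8% of all genes). In these 3 settings the ribosomal protein genes had a smaller share of rises, and of falls, than all genes. The median ribosomal protein gene was then at 0.05, 0.06 and 0.01, above 0 in each. In each of these 3 settings the genes that fell were Rpl7l1 and Rps19bp1, and the median of all tested genes itself lay lower, at -0.06, -0.04 and -0.09. Leaving out control replicate 2 gave 42 risen genes (49.4%, against 18.6% of all genes) and leaving out treated replicate 1 gave 32 (37.6% against 17.9%). There were 17 without treated replicate 4 (20.0% against 19.0%), 12 without control replicate 3 (14.1% against 16.7%) and 11 without treated replicate 2 (12.9% against 17.1%). Without control replicate 4 there were 6 (7.06% against 16.1%), with 1 fall (15.6% of all genes fell). The distance between the median ribosomal protein gene and the median gene, 0.108 with all 6 libraries, ranged from 0.0720 to 0.153 over these.

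**Figure D3:**
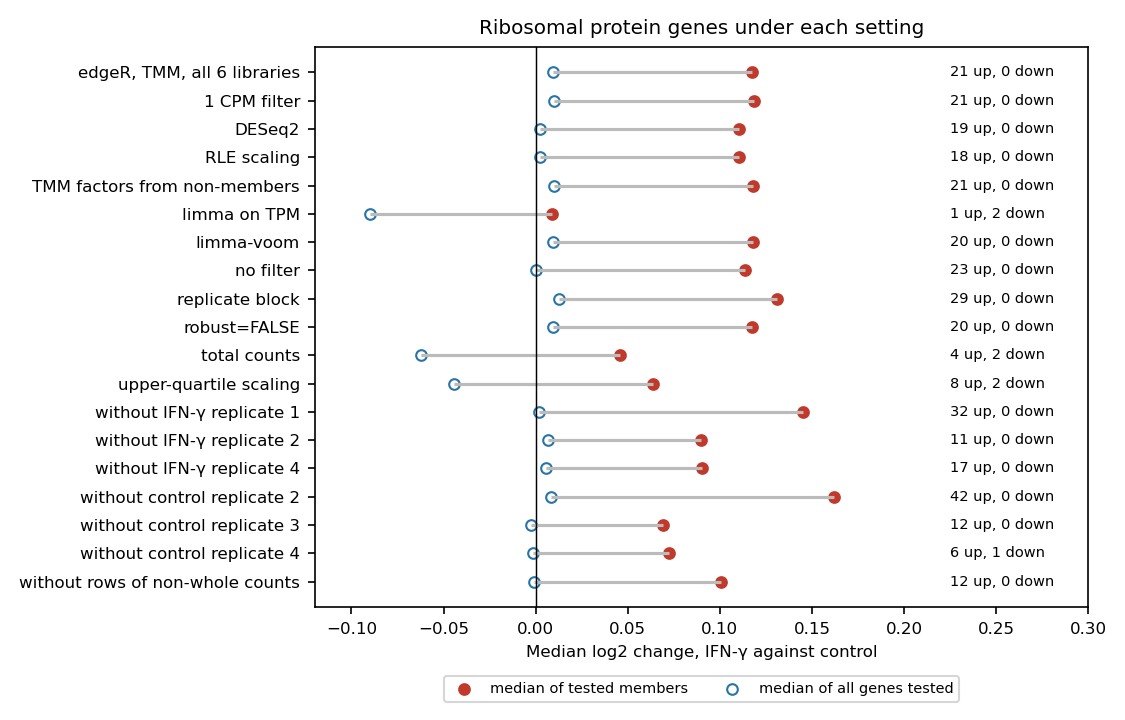
Median log2 change (horizontal axis) of the tested ribosomal protein genes (filled) and of all genes tested (open) under each setting, with the number of ribosomal protein genes up and down at the right. The 2 medians move together under total-count, upper-quartile and TPM scaling, while leaving out single libraries moves mainly the filled points, between 0.07 and 0.16.

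Genes with non-whole counts in at least 1 library were set apart from the rest. Such counts can arise when reads are divided between similar genes, which was not tested here. In the fit over all genes, 15 of the 67 tested genes with whole counts in every library rose (22.4%, against 19.9% of all genes), with a median log2 change of 0.11 (9 of 39 large, median 0.11, and 6 of 28 small, median 0.12). Of the 18 tested genes with non-whole counts 6 rose (33.3%), with a median of 0.14 (4 of 13 large, median 0.15, and 2 of 5 small, median 0.10). When all rows with non-whole counts were left out and the fit was repeated, 12 of 67 rose and 0 fell, 7 large and 5 small, with a median of 0.10. This share of 17.9% was near the 19.0% of all genes that rose in the same fit, where 19.8% of all genes fell.

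Among large subunit genes, Rpl35a on chromosome 16 (GRCm38.p6, 33056453 to 33060189), one of the genes mutated in Diamond-Blackfan anaemia, had the largest change. It stood at 394, 367 and 356 CPM in controls and at 420, 458 and 451 CPM in treated libraries. All treated libraries lay above all controls, with a log2 change of 0.25 ± 0.06 (SE) and an adjusted p of 0.000809 by edgeR's quasi-likelihood test. Rpl35a, the start of which is shown above with a run of 13 bases of C and T, was also the 1 gene that rose under every scaling including TPM. Rpl21, a large subunit protein with many processed copies in the genome and non-whole counts in all 6 libraries, stood at 790, 693 and 692 CPM and at 759, 904 and 917 CPM. Here treated replicate 1 lay below control replicate 2, with a log2 change of 0.25 (adjusted p = 0.00616).

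Rpl17, Rpl19, Rpl22, Rpl23a, Rpl26, Rpl31 and Rpl35 are among the proteins around the exit of the tunnel through which the new chain leaves the ribosome, named together here after their values were seen. Of these, Rpl17 (log2 change 0.09, adjusted p = 0.219) and Rpl22, given below with its paralog, did not pass the test. Rpl31 stood at 650, 610 and 616 CPM in controls and 698, 752 and 700 CPM in treated libraries (log2 change 0.20, adjusted p = 0.00421). Rpl26, which is also known to bind the Trp53 messenger, stood at 567, 562 and 549 CPM and 602, 653 and 664 CPM (0.19, adjusted p = 0.00489). Rpl19 stood at 917, 948 and 798 CPM and 999, 1015 and 1056 CPM (0.21, adjusted p = 0.00845). In each of these 3 genes the groups did not overlap. Rpl35, at 623, 581 and 567 CPM against 641, 671 and 716 CPM, rose by 0.20 (adjusted p = 0.00712), likewise without overlap. Rpl23a, where the signal recognition particle docks, stood at 1136, 1014 and 1027 CPM and 1122, 1230 and 1155 CPM, and treated replicate 1 lay below control replicate 2 (0.14, adjusted p = 0.0466). Rpl39, which lines the tunnel, had a log2 change of 0.15 and did not pass (adjusted p = 0.0608).

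Nearer the catalytic centre, Rpl3 rose from 1430, 1409 and 1337 CPM to 1549, 1597 and 1598 CPM, without overlap and with the smallest SE among the risen large subunit genes (0.18 ± 0.03, adjusted p = 0.00511). Rpl10, a late-joining protein of the large subunit, had a log2 change of 0.11 and did not pass (adjusted p = 0.142). The other risen large subunit genes were Rpl22l1, Rpl36a, Rpl34, Rpl29 and Rpl27, with log2 changes from 0.14 (Rpl27) to 0.23 (Rpl22l1). Of the 13, the calls of Rpl35a, Rpl31 and Rpl26 were kept whichever single library was left out.

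The stalk of the large subunit, which recruits elongation factors, is formed by Rplp0, Rplp1 and Rplp2, and none of them passed. Rplp0 stood at 2814, 2650 and 2653 CPM in controls and 2758, 3012 and 2930 CPM in treated libraries (log2 change 0.10, adjusted p = 0.136, and -0.0103 on TPM), with treated replicate 1 below control replicate 2. Rplp1 had a log2 change of 0.06 and Rplp2 of 0.05, both of which turned negative with total counts (-0.0107 and -0.0178) and with TPM (-0.0393 and -0.0476). Rpl18, with no change on average, stood at 555, 463 and 481 CPM and 469, 536 and 493 CPM, and the libraries were interleaved.

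Among small subunit genes, Rps15a on chromosome 7 (GRCm38.p6, 118104374 to 118116147) had the largest change. It stood at 255, 268 and 263 CPM in controls and 271, 319 and 328 CPM in treated libraries. The groups did not overlap, although treated replicate 1 was only just above the controls (0.23 ± 0.09, adjusted p = 0.00622). Rps21, a protein of the solvent side that is needed for maturation of the small subunit RNA, varied least among the risen small subunit genes, at 306, 313 and 314 CPM against 339, 354 and 361 CPM, without overlap (0.18 ± 0.03, adjusted p = 0.00706). The calls of these 2 genes were kept whichever single library was left out, while Rps21 was no longer past the threshold with upper-quartile or total-count scaling. Rps24, Rps28 and Rps29, all among the genes mutated in Diamond-Blackfan anaemia, rose by 0.16, 0.16 and 0.17, and in each of them treated replicate 1 lay at or below control replicate 2. Rps27 and Rps3a1 rose by 0.18 and 0.15.

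**Figure D4:**
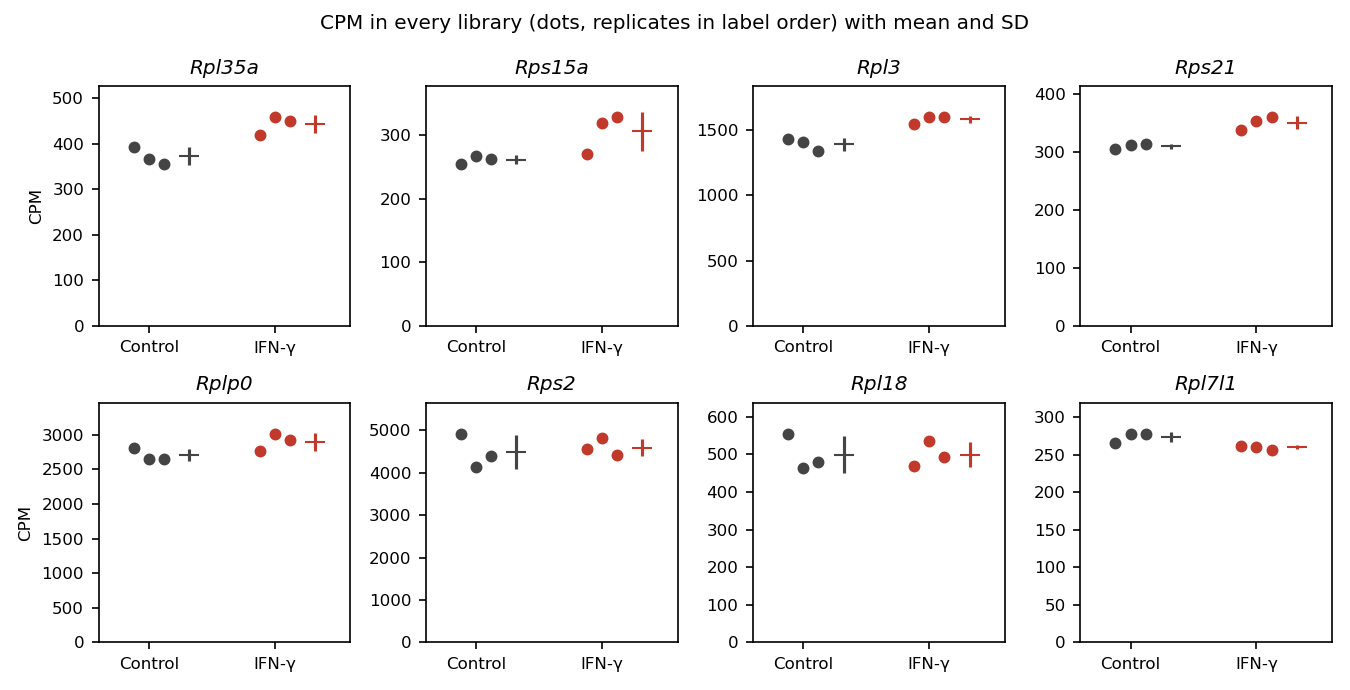
CPM (vertical axes, from 0) of 8 ribosomal protein genes in the 3 control and 3 interferon-gamma libraries (dots, in the order of the replicate numbers), with the mean and SD beside them. Rpl35a, Rps15a, Rpl3 and Rps21 are higher in all treated libraries, Rplp0, Rps2 and Rpl18 overlap, and Rpl7l1 is lower in all treated libraries.

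Rps2 was the most abundant of the genes in CPM and TPM. It stood at 4918, 4139 and 4388 CPM in controls and 4549, 4815 and 4418 CPM in treated libraries, with the control range enclosing the treated one. Its log2 change of 0.04 turned negative with total counts (-0.0356), upper-quartile scaling (-0.0181) and TPM (-0.0704). Rpsa, which also serves as a laminin receptor, stood at 2538, 2371 and 2357 CPM against 2487, 2587 and 2527 CPM, a log2 change of 0.06 that turned to -0.00688 with total counts and -0.0448 with TPM. Rps4x had a change of 0.10 (adjusted p = 0.201), which was -0.0107 with TPM.

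Levels were compared between genes by TPM, which takes length into account. The median tested ribosomal protein gene had 2237 TPM, against 20.9 TPM over all tested genes, and 71 of the 161 genes at or above 1000 TPM were ribosomal protein genes (44.1%). The highest were Rps2 (9931 TPM), Rpl23a (6239), Rpl12 (5781), Rpl35 (5698), Rps18 (5663) and Rps26 (5461). Although ribosomal proteins are needed in about equal numbers, Rps15a (92.0) and Rps6 (47.2) lay under 100 TPM. The only other tested genes under 100 TPM were the copies Rpl32l (35.5) and Rpl37rt (5.32). For Rps15a the count was not low, with 4786 to 5798 estimated counts per library. Its ratio of counts to TPM was 11.5 times that of the median ribosomal protein gene, so its low TPM went with a large length assigned to it. For Rps6, the substrate of the S6 kinases downstream of mTOR, the count itself was low. It had 557, 682 and 582 estimated counts in controls and 605, 602 and 627 in treated libraries, none of them whole, and whether reads went to similar copies instead was not tested. It had a log2 change of 0.10 (adjusted p = 0.329, and -0.0042 on TPM). By TPM these genes together held 21.6% ± 0.795 of the control and 21.7% ± 0.640 of the treated libraries (SD, n = 3 each).

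In all, 4 pairs of a ribosomal protein and its paralog had values in every library, and the share of the paralog within its pair does not depend on how libraries are scaled. Shares by TPM were compared by an exact two-sided permutation test, whose smallest possible p with 3 against 3 libraries is 0.1, with adjustment over the 4 pairs. Rpl22l1 can replace Rpl22, which is known to repress it. Rpl22l1 made up 67.7%, 69.2% and 67.2% of the pair in controls and 69.3%, 69.4% and 72.8% in treated libraries. The treated libraries were higher without overlap, by 2.50 percentage points on average (SD 1.04 in controls and 1.96 in treated libraries, n = 3 each, exact p = 0.1, adjusted 0.4), although the highest control and the lowest treated library nearly met. By counts the share of Rpl22l1 was 18.8% in controls and 20.6% in treated libraries, with overlap, so which of the 2 made up more of the pair depended on the measure. Relative to the median ribosomal protein gene, the ratio of counts to TPM was 4.54 for Rpl22 and 0.492 for Rpl22l1. Rpl22l1 itself rose (log2 change 0.23, adjusted p = 0.0225), and Rpl22 did not pass (0.06, turning to -0.0139 with total counts and -0.0525 with TPM).

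Rpl7l1, a paralog of Rpl7 that acts in ribosome assembly, had the one change below 0 without overlap. It stood at 266, 278 and 278 CPM in controls and 262, 261 and 257 CPM in treated libraries (log2 change -0.08, adjusted p = 0.235). Its share of the pair was 6.44% ± 0.481 in controls and 5.77% ± 0.346 in treated libraries (SD, n = 3 each, exact p = 0.2, adjusted 0.4). Rps27l, a target of Trp53, made up 13.2% and 12.9% of its pair with Rps27 (exact p = 0.5), and Rpl36al made up 27.8% and 27.1% of its pair with Rpl36a (exact p = 0.5). Rps27 and Rps27l, whose start windows both hold a run of 9 bases of C and T, had log2 changes of 0.18 and 0.15. Rpl39l had 2 counts over the 6 libraries and was not tested, and Rpl3l, Rpl10l and Rps4l were not analysed here.

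Copies that share sequence with a parent are uncertain, since reads can be divided between them. Rpl34-ps1 took 38.8% to 44.2% of the counts of its pair with Rpl34 and had a log2 change of 0.15 (adjusted p = 0.154), against 0.17 for Rpl34, which rose (adjusted p = 0.0185). Rpl32l took 1.02% to 1.36% of its pair with Rpl32, and Rpl37rt 0.191% to 0.46% of its pair with Rpl37. Neither passed. Rpl37rt, at 0.936 to 1.94 CPM, had a log2 change of 0.19 with an SE of 0.29, which turned negative without treated replicate 4 (-0.0774) and on TPM (-0.00315). Rpl31-ps12 had reads in 1 control library only and was not tested.

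None of Rpl13a, Rpl5, Rpl11, Rpl23 and Rps3, which have known tasks away from the ribosome, passed the test. Rpl13a, which leaves the ribosome in interferon-gamma-treated myeloid cells to form the GAIT complex, stood at 742, 625 and 666 CPM in controls and 738, 780 and 717 CPM in treated libraries. It did not pass (log2 change 0.14, adjusted p = 0.0761), and its control replicate 2 lay above 2 of the treated libraries. Rpl5, Rpl11 and Rpl23, which bind Mdm2 when ribosome assembly is disturbed, had log2 changes of 0.12, 0.10 and 0.13 and did not pass (adjusted p = 0.079, 0.178 and 0.132), and that of Rpl11 was -0.00898 on TPM. For Rpl5 the groups did not overlap, at 890, 919 and 860 CPM against 923, 947 and 1036 CPM. Rps3, which also joins nuclear factor kappa B complexes, had a change of 0.09 (adjusted p = 0.185, and -0.0182 on TPM). Rps19bp1 had the lowest change of all, from 62.5, 56.8 and 54.0 CPM to 48.3, 54.9 and 52.8 CPM (-0.15, adjusted p = 0.0785), with treated replicate 2 inside the control range.

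Fau and Rack1 encode ribosomal proteins whose symbols do not follow the pattern. Their log2 changes were 0.09 and 0.08, and neither passed (adjusted p = 0.253 and 0.233). Both turned negative on TPM (-0.00579 and -0.0257). Elongation factors and other genes with TOP messengers had a median of 0.01 over 19 tested genes, with 10.5% called against 38.1% of all genes. Naca, a chaperone of new chains at the tunnel exit, rose by 0.15, and Eif4b, a cofactor of the initiation helicase, fell by 0.16. Of 27 initiation factors 2 fell and 0 rose, 7.41% called against 38.1% of all genes, with a median of -0.03. The 2 were Eif3a (-0.18), the largest subunit of Eif3, and Eif2b3 (-0.23), a subunit of the exchange factor of Eif2. At an unadjusted edgeR p under 0.05, 4 factors were lower and 0 higher, beside 2502 lower and 2690 higher of all 11423 tested genes. DESeq2 called 3 lower (16.0% of all genes) and limma-voom 2 (18.1%).

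Among factors that chaperone ribosomal proteins or assemble subunits, falls were more frequent than rises. Of 31 listed genes 27 were tested, 12 fell and 1 rose, with a median log2 change of -0.10, beside the 18.1% of all tested genes that fell and their median of 0.01. Rrs1, which helps load Rpl5, Rpl11 and the 5S RNA onto the large subunit, stood at 137, 137 and 131 CPM in controls and 82.1, 81.9 and 80.9 CPM in treated libraries, without overlap (log2 change -0.73, adjusted p = 1.85e-10). Grwd1, the chaperone of Rpl3, fell by 0.54, and Tsr1, an assembly factor of the small subunit, fell by 0.53. Nob1, the nuclease that trims small subunit RNA, fell by 0.38. Riok3, a kinase of the small subunit precursor, rose by 0.32. Rpl3 itself rose, as given above, while its chaperone fell. On TPM 20 of the 27 passed in either direction. In that fit 11.6% of all genes rose and 28.8% fell, with the median of all genes at -0.09. Chosen after their values were seen, Tsr2 (-0.31), the chaperone of Rps26, and Heatr3 (-0.27), the importer of Rpl5, also fell.

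Regulators of ribosomal protein genes and of TOP messengers were mixed, with 3 risen and 7 fallen of 19 tested, 52.6% called against 38.1% of all genes, and a median of -0.03. Myc, a transcription factor of ribosome genes, stood at 145, 128 and 128 CPM in controls and 87.0, 91.3 and 86.0 CPM in treated libraries, without overlap (log2 change -0.60, adjusted p = 3.03e-08). Its partner Max fell by 0.25. Deptor, an inhibitor bound to mTOR, rose from 9.04, 11.7 and 10.4 CPM to 21.4, 19.3 and 22.2 CPM (1.01, adjusted p = 2.59e-08). Ddit4, which restrains mTOR through Tsc2, rose by 0.42. In the GAIT list, which also holds Rpl13a, Eprs (-0.16) and Syncrip (-0.18) fell and Gapdh rose by 0.18. These were 3 called of 5 (60.0%, against 38.1% of all genes), with Dapk1 not analysed here. For Gapdh, with non-whole counts in all 6 libraries, the groups overlapped, while for Eprs and Syncrip they did not. Each of these 3 calls was lost without treated replicate 2 (adjusted p = 0.0681, 0.0973 and 0.14) and with the replicate number as a block.

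Ribosome quality control and stalling genes were mixed, with 5 risen and 4 fallen of 17, 52.9% called against 38.1% of all genes, and a median of 0.04. Gtpbp2 (0.34), a rescue factor, and Ascc3 (0.27), a helicase of collided ribosomes, rose. Map3k20 (-0.47), the kinase that senses stalled ribosomes, and Usp10 (-0.29), which removes ubiquitin from small subunit proteins, fell. Around Mdm2, in a list that holds Rpl5, Rpl11 and Rpl23 as well, Cdkn1a rose by 0.52 and Trp53 (-0.14) and Zmat3 (-0.29) fell. That is 3 called of 11 (27.3%), against 38.1% of all genes. Ribosomal proteins of the mitochondrion, made from other genes, had 10 risen and 5 fallen of 78, 19.2% called against 38.1% of all genes, and a median of 0.02. Among them Mrpl13 (0.33) and Mrpl22 (0.28) rose and Mrps2 (-0.37) and Mrps6 (-0.28) fell.

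**Figure D5:**
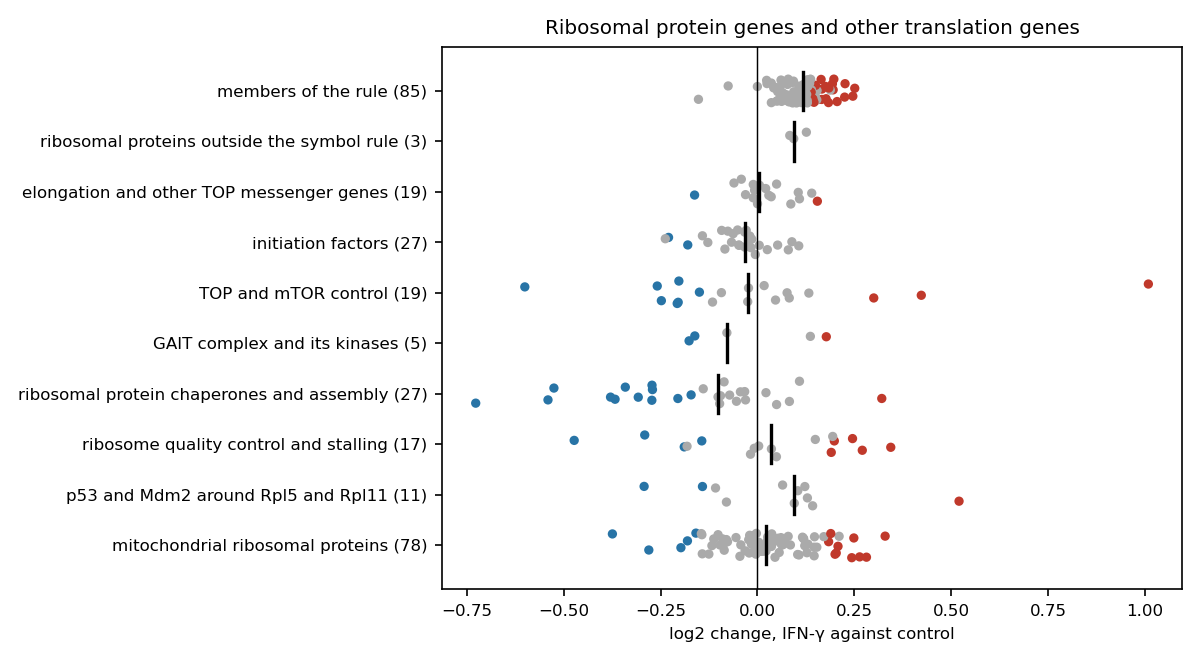
Log2 change (horizontal axis) of each tested gene of the ribosomal protein genes and of 9 further lists, with the number tested; red rose, blue fell, grey did not pass, and the black bar is the median of the list. The ribosomal protein genes lie close together around 0.12, while the chaperones and assembly factors have a median of -0.10 and reach -0.73.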

How the data were processed

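Read counts per gene were deposited by the authors as estimated counts, of which some are not whole (1604 genes in at least 1 library). TPM and FPKM values were deposited beside them, per the file headers, and FPKM entered no test. The submitters' processing notes list HISAT and HISAT2 as tools and the builds mm10 and GRCm38.p6, with no roles given; which program counted the reads is not stated there. Counts were rounded and tested with edgeR 4.0.16 (quasi-likelihood, robust, TMM scaling, filterByExpr with a minimum count of 10) in R 4.3.3, all 6 libraries in 1 fit, control against treated, adjusted over all 11423 tested genes at 0.05. Standard errors came from the spread of log2 CPM between replicates. Alternatives were DESeq2 1.42.0, limma 3.58.1 (voom, and log2(TPM + 1)), other scalings and filters, a replicate block, no rows of non-whole counts, and each library left out. TMM factors from other genes only were added after seeing the data. The ribosomal protein genes and all lists were chosen with earlier results of these data known. Genes were named as the 6 largest rises and falls among those past the threshold, the 6 highest and 3 lowest by TPM, a list of paralogs, stalk, and extra-ribosomal genes, and up to 4 of smallest adjusted p in each other list, with Irf1 as the check of treatment. The other risen genes given, Rpl18, Rps12, Riok3, Tsr2 and Heatr3 were named after their values were seen. Some genes are counted in the totals but not reported here by name.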

Additional observations from a re-analysis of the deposited data

How the results depend on the processing

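No called ribosomal protein gene changed sign in any setting. The count of 21 changed genes became 3 with TPM, 6 with total counts, 10 with upper-quartile scaling and 12 without non-whole rows, and ranged from 7 to 42 with single libraries left out. For the large subunit (13) these were 2, 4, 8 and 7, and 4 to 26. For the small subunit (8) they were 1, 2, 2 and 5, and 2 to 16. For genes of whole counts (15) they were 2 with TPM, 3 with total counts and 7 with upper-quartile scaling, and 5 to 34 with a library left out. Of the 21 calls, 5 were kept under each left-out library and 4 under all 3 other scalings. On TPM the median log2 changes were 0.00909 for all, 0.00898 for the large and 0.0113 for the small subunit, and 0.00360 for genes of whole counts. The share of counts differed by 0.132 percentage points, and by 0.421 with genes that rose at least 2-fold out of the total, with the groups still overlapping.

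In the other lists, leaving out single libraries gave 0 to 1 changed genes for ribosomal proteins outside the symbol pattern, 1 to 3 for elongation and TOP genes, 2 to 5 for initiation factors, 0 to 4 for the GAIT list and 7 to 19 for mitochondrial ribosomal proteins. Initiation factors had 12 with TPM, 10 with total counts and 7 with upper-quartile scaling, elongation and TOP genes 1 with upper-quartile scaling, and assembly factors 20 with TPM. Of all genes, 11.6% rose and 28.8% fell with TPM, 14.4% and 27.3% with total counts, and 15.5% and 24.7% with upper-quartile scaling.

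Of the named genes' values under the alternatives, 1129 kept direction and side of the threshold, 43 passed it and 67 no longer passed it. Another 27 turned to the other sign. With TPM these were Eif2s3x (-0.00542), Fau (-0.00579), Rack1 (-0.0257), Rpl11 (-0.00898), Rpl12 (-0.0265), Rpl22 (-0.0525), Rpl37rt (-0.00315), Rpl7 (-0.0177), Rplp0 (-0.0103), Rplp1 (-0.0393), Rplp2 (-0.0476), Rps2 (-0.0704), Rps26 (-0.000955), Rps3 (-0.0182), Rps4x (-0.0107), Rps6 (-0.00420) and Rpsa (-0.0448). With total counts they were Rpl22 (-0.0139), Rplp1 (-0.0107), Rplp2 (-0.0178), Rps2 (-0.0356) and Rpsa (-0.00688), and with upper-quartile scaling Rps2 (-0.0181). With single libraries left out the log2 change ranged from -0.0774 to 0.425 for Rpl37rt, from -0.0135 to 0.123 for Rplp1 and from -0.0311 to 0.107 for Rps2. The cause was not tested.

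Replicate numbers 2 and 4 occur in both groups. The deviations of the same-numbered libraries correlated at 0.13 and -0.09 over all genes and at 0.30 and -0.35 over the ribosomal protein genes, and the labels do not say that a number marks a shared batch, so the block is given here only. With the replicate number as a block, 29 ribosomal protein genes rose and 0 fell, with a median log2 change of 0.13. In that fit 34.12% of the tested ribosomal protein genes rose, against 18.67% of all genes. The median log2 change of all genes was 0.01, and the share of all genes that fell is not given here. In the same fit the GAIT list had 0 changed genes, and Rps2 had a log2 change of -0.0102. With 3 libraries a group, precision rests on the spread between few libraries.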
